A study of Mus musculus with 14 samples.

Results

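The genes described here are 9 members of the pathway that detects double-stranded RNA and answers it with interferon, taken by name out of 53239 gene symbols in the deposited tables. They are the sensors Eif2ak2, Ifih1, Ddx58 and Zbp1, the adaptor Mavs, the transcription factors Irf3 and Irf7, and the interferon-stimulated genes Isg15 and Ifit1. All 9 are listed in every table. No threshold on a measured value set the membership, but the genes were chosen with earlier results of these data known.

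RNA was measured in whole testes of 21-day-old C57BL/6 mice, in 4 Adad2 mutant animals (MUT, Adad2 M/M, animals 12, 69, 93 and 94) and 3 wild-type animals (WT, animals 17, 121 and 140). All 7 animals carried the RiboTag allele, which adds an HA tag to the ribosomal protein RPL22 where Cre is active, together with Stra8-iCre, whose promoter drives Cre in differentiating germ cells. Each animal gave 2 libraries, the HA immunoprecipitate (IP), which holds RNA bound to tagged ribosomes, and the input, which holds total RNA of all testis cells. ADAD2 is a testis-specific protein with a double-stranded RNA-binding domain, and the study asked how its loss alters ribosome association of germ cell transcripts.

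Long double-stranded RNA is a sign of viral infection, but cells also make it from repeats and from overlapping transcription. RIG-I (Ddx58) and MDA5 (Ifih1) are helicases that bind such RNA and signal through MAVS on mitochondria, which leads to phosphorylation of IRF3 and, once it is made, IRF7. These factors switch on interferon genes, and secreted interferon then induces a large set of genes that includes most of the sensors themselves. PKR (Eif2ak2) acts in parallel: bound to double-stranded RNA, it phosphorylates eIF2 and halts translation, and ZBP1 recognises Z-form nucleic acid and can start necroptosis.

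Interferon-induced genes often carry an interferon-stimulated response element near their start, and the RefSeq promoter windows (GRCm38.p6, 250 bases before to 50 bases after the start) were searched for a simple form of it, GAAANNGAAA, on both strands. A window was found for 8 of the 9 genes, all but Zbp1. The letters were found in 5 of these 8 windows, those of Ifih1, Ddx58, Isg15, Eif2ak2 and Ifit1, and in 1131 of 32851 windows of all genes (3.44%). They were not found in the windows of Mavs, Irf3 and Irf7. In Ifih1, Ddx58 and Eif2ak2 the match began after the annotated start. The stretches upstream of the start in Isg15 (chr4:156200855-156200916, minus strand) and Ifit1 (chr19:34640765-34640833, plus strand) are shown because these are the 2 members with several matches, with the matches in capitals. In Isg15 there were 3 overlapping matches on the gene's strand, and in Ifit1 there were 2 on the opposite strand, where the letters read TTTCNNTTTC.
Isg15: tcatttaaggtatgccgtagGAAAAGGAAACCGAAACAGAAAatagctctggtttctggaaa
Ifit1: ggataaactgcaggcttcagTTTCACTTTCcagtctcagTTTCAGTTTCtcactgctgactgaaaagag

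The 14 libraries held 22987974 to 30871330 expected counts each, which are RSEM's estimates of read counts, so total depth was similar in all groups. The number of annotated genes with a count above 0 was not: it was 12744 to 15024 in MUT IP, 19655 to 21880 in WT IP, 15438 to 27002 in MUT input and 25319 to 27791 in WT input. In MUT input, animals 12 (16024 genes) and 69 (15438 genes) listed the fewest. Animal 93 (21334) was also below every WT input library, and animal 94 (27002) was within their range. The added spike-in RNAs showed a like pattern. Of the pairs of library and spike-in species with a mean of at least 20 counts in the fraction, 25 of 216 were listed at 0 in MUT IP and 3 of 162 in WT IP, and 14 of 168 in MUT input and 0 of 126 in WT input. A count of 0 in a mutant library therefore cannot be read as absence of the RNA. The genotype labels were borne out by Adad2, which had 285, 329, 277 and 191 counts in MUT IP (animals 12, 69, 93 and 94), against 2815, 2411 and 2510 counts in WT IP (animals 17, 121 and 140), and was lower in MUT IP by a log2 fold change of -3.44 (SE 0.24, edgeR adjusted p = 0.014). Per-library values of every gene below are given in these same animal orders.

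Detection differed among the 9 genes. Eif2ak2, Mavs and Irf3 had at least 3 counts in all 14 libraries. Ifih1 was above 0 in 13, Ddx58 in 10, Irf7 in 8, Isg15 in 7, Ifit1 in 5 and Zbp1 in 3 libraries. Over all members, 88 of 126 pairs of gene and library were above 0 and 85 had at least 3 counts, the count used here as the floor below which a value is not read as a level (0.0964 to 0.132 CPM, depending on the library; CPM are TMM-scaled counts per 1000000).

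By library, 5, 4, 5 and 5 members were above 0 in MUT IP and 7 in each of the 3 WT IP libraries. In input, 3, 4, 8 and 9 members were above 0 in MUT and 8 in each WT library. The MUT input libraries with 3 and 4 members were those of animals 12 and 69, which also listed the fewest genes of the input libraries. The part of library complexity in the detection of these genes was not tested.

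**Figure D1:**
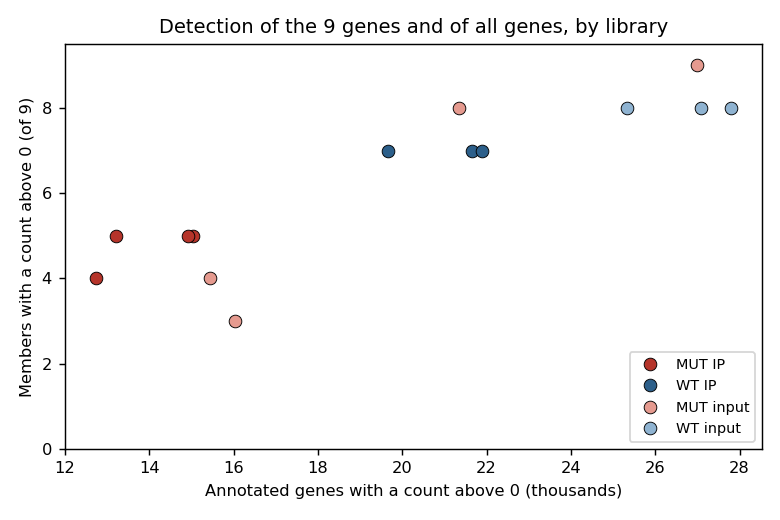
Number of the 9 members with a count above 0 (vertical axis) against the number of annotated genes with a count above 0 (horizontal axis, in units of 1000), 1 point per library, colored by group. The MUT IP libraries (4 or 5 members) and the MUT input libraries of animals 12 and 69 (3 and 4 members) listed 16024 genes at most, and the other 8 libraries listed 19655 genes or more and 7 to 9 members.

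Levels of different genes were compared in TPM, the authors' transcript abundance scaled to 1000000 per library, which accounts for transcript length. Irf3 was the highest member in every group, with 68.9 ± 14.2 TPM in MUT IP (SD, n = 4), 62.1 ± 12.1 in WT IP (n = 3), 32.7 ± 7.85 in MUT input (n = 4) and 36.1 ± 2.73 in WT input (n = 3), and its range overlapped that of no other member. Eif2ak2 and Mavs came next. In WT input they stood at 6.70 ± 1.82 and 3.57 ± 0.296 TPM without overlap, while in MUT IP, WT IP and MUT input their ranges overlapped. Ddx58 (1.52 ± 0.386 TPM in WT input), Ifih1 (1.24 ± 0.229) and Irf7 (0.877 ± 0.25) followed, and in this tier neighbours overlapped in every group. Isg15 (0.37 ± 0.25) and Ifit1 (0.22 ± 0.147) lay below 1 TPM in WT input, and Zbp1 was listed at 0 in all 6 WT libraries.

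**Figure D2:**
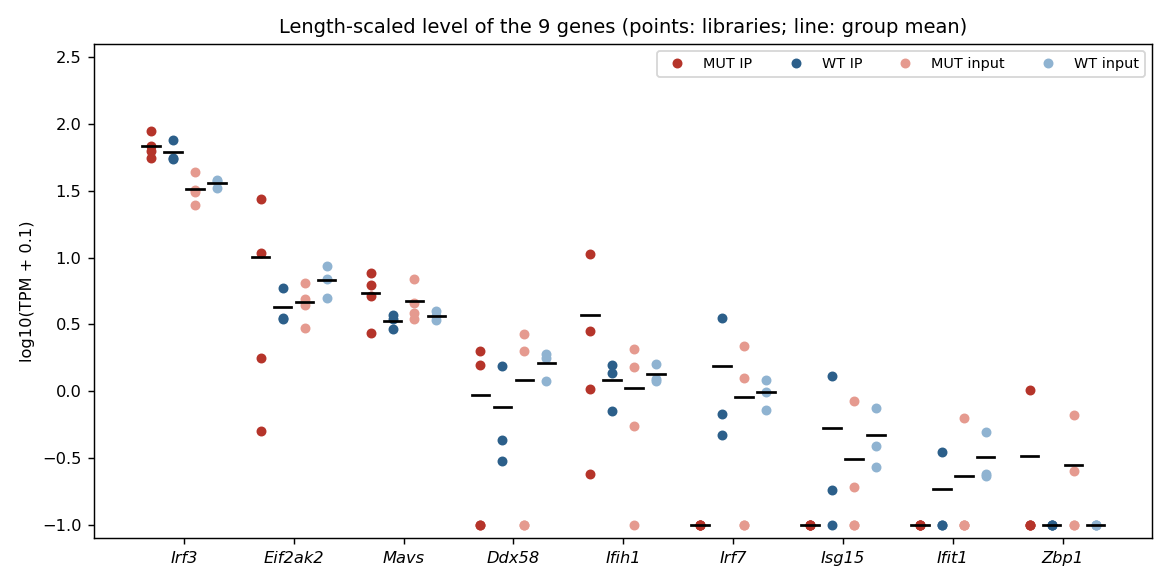
Deposited TPM summed per gene, as log10(TPM + 0.1), for each library (points) with the group mean (line), genes ordered by their mean in WT input; a value of -1 stands for 0 TPM. Irf3 (24.6 to 88.8 TPM) lies above every other member in each group, and Irf7, Isg15 and Ifit1 lie at 0 in all MUT IP libraries.

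The first comparison asked whether the loss of Adad2 changed the total RNA of these genes in the testis. In input, edgeR called none of the 7 members that passed its filter on low counts (0 also with unadjusted p below 0.05, 0 by DESeq2 and 0 by limma on log2 TPM), beside 3 of 36572 features in all (0.00820%). In bulk testis RNA, fewer cells of a type and less RNA per cell cannot be told apart. The second comparison asked the same of ribosome-bound RNA. In IP, edgeR called none of the 6 members tested (1 with unadjusted p below 0.05, Irf7, which DESeq2 and limma called lower in MUT), beside 2 of 26186 features (0.00764%). The next comparisons set IP against input within a genotype, with the animal as a block. In MUT, none of the 5 members tested passed in edgeR (0 with unadjusted p below 0.05, 0 by DESeq2, 1 by limma, Irf3 higher), beside 2271 of 22918 features (9.91%). In WT, 2 of 7 members tested passed, Irf3 higher and Eif2ak2 lower in IP, beside 6761 of 34864 features (19.4%), a background against which 2 of 7 is no result about the members as a group. The fits within a genotype were scaled on their own libraries. With the scaling of the printed CPM, which runs over all 14 libraries, the median of all features in this comparison was -0.91 in place of -0.60 on the log2 scale, 3450 features were called higher and 3389 lower in place of 4541 and 2220, and Eif2ak2 was the 1 member called. The last asked whether IP over input differed by genotype. None of the 3 members tested passed (0 with unadjusted p below 0.05, 0 by DESeq2, 0 by limma), beside 0 of 16015 features (0%). Zbp1 and Isg15 were too low to be tested in any comparison, and Ifit1 and Irf7 in some. Ifih1 and Ddx58 were left out of the last one because it used features above 0 in every input library: both were at 0 in the MUT input of animal 12, and Ddx58 also in that of animal 69, although they reached 401 and 205 counts in other input libraries. The members tested are thus not all members.

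**Figure D3:**
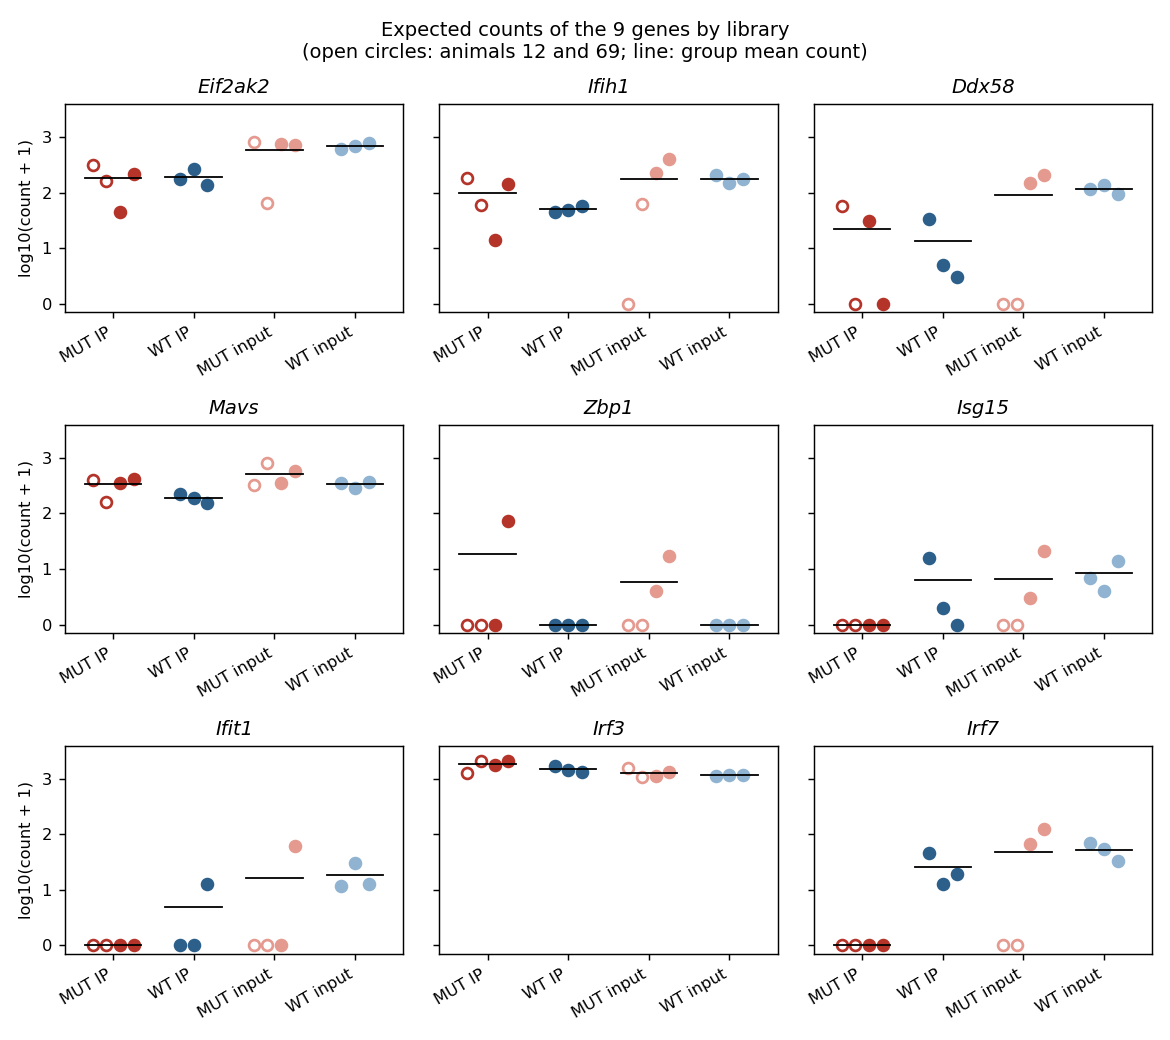
Expected counts of each gene as log10(count + 1) for every library by group, with the group mean count as a line; open circles are animals 12 and 69. Eif2ak2, Mavs and Irf3 are above 0 in all 14 libraries, and Ddx58, Zbp1, Isg15, Ifit1 and Irf7 are at 0 in both input libraries drawn as open circles.

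Among the sensors, Ifih1 (ENSMUSG00000026896.14, chr2:62595798-62646255, minus strand of GRCm38) encodes MDA5, which binds long double-stranded RNA. It had 182, 58, 13 and 139 counts in MUT IP, against 44, 47 and 56 counts in WT IP. In input it had 0, 62, 225 and 401 counts in MUT, against 203, 145 and 172 counts in WT. The MUT libraries spread widely in both fractions around the WT libraries, which were close together. MUT and WT overlapped in IP and in input. The log2 fold change of MUT over WT was 0.83 (SE 1.33) in IP and -0.11 (SE 1.53) in input, both at an edgeR adjusted p of 1. In input, the value without animals 12 and 69 was 0.77. In WT, IP was below input in every animal, by a log2 fold change of -1.49 (SE 0.51), which did not pass in edgeR (adjusted p = 0.135) and passed in DESeq2 (adjusted p = 0.00287).

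Ddx58 (ENSMUSG00000040296.15, chr4:40203773-40239828, minus strand) encodes RIG-I, which binds short double-stranded RNA with a 5′ triphosphate. It had 56, 0, 30 and 0 counts in MUT IP, against 32, 4 and 2 counts in WT IP. Input libraries held 0, 0, 148 and 205 counts in MUT, against 115, 133 and 94 counts in WT. In MUT input the pair of libraries at 0 was that of animals 12 and 69, and the other pair was above every WT library in CPM (6.51 and 7.05, against 4.73, 5.22 and 3.62 in WT). The log2 fold change of MUT over WT in input was -0.43 (SE 2.05) with all animals and 0.58 without animals 12 and 69, and neither passed. In WT, IP was below input in all 3 animals, by -3.78 on the log2 scale (SE 1.15, edgeR adjusted p = 0.109, DESeq2 adjusted p = 0.000316).

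Eif2ak2 (ENSMUSG00000024079.4, chr17:78852564-78882573, minus strand) encodes PKR, the eIF2 kinase that double-stranded RNA activates. It had 308, 158, 44 and 216 counts in MUT IP, against 177, 266 and 133 counts in WT IP. In input it had 810, 63, 749 and 724 counts in MUT, against 604, 691 and 763 counts in WT. In MUT input, animal 69 stood far below the other 3 animals, and the rest lay within or just above the WT range. MUT over WT was -0.24 on the log2 scale in IP (SE 0.88) and -0.25 in input (SE 0.72), both at an edgeR adjusted p of 1. In WT the level in IP was lower than in input in 3 of 3 animals, with a log2 fold change of -1.57 (SE 0.31, edgeR adjusted p = 0.0402). That call rested on all 3 animals: without animal 17, 121 or 140 the log2 fold change was -1.56, -1.89 or -1.32, at adjusted p-values between 0.0914 and 0.149. In limma on log2(TPM + 0.1) it was -0.67 (adjusted p = 0.182), less than by counts. A lincRNA on the other strand, Gm26637, overlaps the start of Eif2ak2 over 532 bases, and the strand setting of the counting was not given in the sources used here, so reads in this overlap may be split between them. Gm26637 had 0 counts in all MUT IP libraries, 14 to 36 in WT IP, 27 to 153 in MUT input and 66 to 88 in WT input.

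Zbp1 (ENSMUSG00000027514.14, chr2:173206612-173218923, minus strand) had 0, 0, 0 and 72 counts in MUT IP and 0 in all 3 WT IP libraries. In total RNA there were 0, 0, 3 and 16 counts in MUT and 0 in all 3 WT libraries. The 72 counts of animal 94 were all on a retained-intron transcript, while in the input of animals 93 and 94 at least 93.0% of the counts were on protein-coding transcripts. Zbp1 passed the filter of no comparison.

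The adaptor Mavs (ENSMUSG00000037523.13, chr2:131234063-131248025, plus strand) relays signals of both helicases. It had 392, 161, 359 and 419 counts in MUT IP, against 220, 185 and 156 counts in WT IP. In input it had 327, 796, 347 and 579 counts in MUT, against 348, 291 and 374 counts in WT. In IP, 3 of the 4 MUT libraries were above every WT library, and animal 69 was below them in CPM (5.55, against 6.75 to 7.75 in WT). MUT over WT was 0.64 on the log2 scale in IP (SE 0.58) and 0.51 in input (SE 0.34), at an edgeR adjusted p of 1 in each. IP over input was -0.72 in MUT (SE 0.76, edgeR adjusted p = 0.602) and -0.54 in WT (SE 0.27, adjusted p = 0.25).

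Irf3 (ENSMUSG00000003184.15, chr7:44997648-45002848, plus strand) encodes the constitutive transcription factor that MAVS signalling activates. It had 1293, 2102, 1765 and 2092 counts in MUT IP, against 1737, 1412 and 1350 counts in WT IP. Input libraries held 1546, 1056, 1120 and 1335 counts in MUT, against 1126, 1195 and 1193 counts in WT. The genotypes overlapped in each fraction. MUT over WT was 0.07 on the log2 scale in IP (SE 0.18) and 0.06 in input (SE 0.18). In WT the level in IP was higher than in input in 3 of 3 animals, with 61.2, 58.7 and 58.4 CPM in IP against 46.3, 46.9 and 45.9 CPM in input. The fit scaled on WT libraries gave a log2 fold change of 0.67 (SE 0.09, edgeR adjusted p = 0.0187). The printed CPM give 0.36, which did not pass (edgeR adjusted p = 0.0667). Without animal 17, 121 or 140 the first value was 0.60, 0.65 or 0.69, at adjusted p-values between 0.0832 and 0.129. In MUT it was 0.37 (SE 0.27, edgeR adjusted p = 0.452), with IP above input in 3 of 4 animals, and 1.08 in limma on log2(TPM + 0.1), which passed (adjusted p = 0.0248). On the scale of the printed CPM the mean log2 ratio of IP to input was 0.37 in MUT and 0.36 in WT. In the fits scaled within each genotype the median feature lay below 0, at -0.63 in MUT and -0.60 in WT. The 5′ part of Irf3 overlaps Bcl2l12 on the other strand over 1065 bases. Bcl2l12 had 1081 to 1988 counts in MUT IP, 1384 to 1637 in WT IP, 731 to 1338 in MUT input and 758 to 954 in WT input, and like Irf3 it averaged more CPM in IP than in input in both genotypes (46.6 against 36.5 in MUT and 60.6 against 33.6 in WT). How far reads of one were counted for the other was not tested.

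Irf7 (ENSMUSG00000025498.15, chr7:141262706-141266481, minus strand) encodes the interferon-induced factor that amplifies the response. It had 0 counts in all 4 MUT IP libraries, against 45, 12 and 18 counts in WT IP. In input it had 0, 0, 66 and 122 counts in MUT, against 69, 53 and 32 counts in WT. In IP the groups did not overlap, while in input animals 93 and 94 reached the WT range or passed it. In WT IP the level was 1.59, 0.499 and 0.779 CPM, highest in animal 17. Since a 0 in a mutant library cannot be read as absence, no fold is given. The difference was not called by edgeR (adjusted p = 0.114) and was called by DESeq2 (adjusted p = 0.00015) and by limma on log2(TPM + 0.1) (adjusted p = 0.0407). Over the alternatives run, its adjusted p lay between 0.00015 and 0.273. This pattern was common: of 16828 annotated genes above 0 in all 3 WT IP libraries, 1420 (8.44%) were at 0 in all 4 MUT IP libraries, and among the 3561 of them with a mean of 10 to 50 counts in WT IP, as Irf7 has, 837 (23.5%) were. The reverse, above 0 in all MUT IP and at 0 in all WT IP libraries, was seen for 2 of 9903 genes. Irf7 shares 45 bases of its 3′ end with Phrf1 on the other strand.

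Of the interferon-stimulated genes, Isg15 (ENSMUSG00000035692.6, chr4:156199424-156200818, minus strand), a ubiquitin-like modifier, had 0 counts in all 4 MUT IP libraries and 15, 1 and 0 counts in WT IP. Total RNA held 0, 0, 2 and 20 counts in MUT, against 6, 3 and 13 counts in WT. Ifit1 (ENSMUSG00000034459.8, chr19:34640871-34650009, plus strand), which binds foreign RNA caps, had 0 counts in all 4 MUT IP libraries and 0, 0 and 12 counts in WT IP. In input it had 0, 0, 0 and 61 counts in MUT, against 11, 30 and 12 counts in WT. In IP both genes were at or near the floor in either genotype, and no difference was detectable at this depth. In input, animal 94 had the highest count of both, and also of Ifih1, Ddx58, Zbp1 and Irf7, and its library listed the most annotated genes of the MUT libraries (27002). Isg15 passed the filter of no comparison. The log2 fold change of Ifit1 in input was -0.45 (SE 2.31, edgeR adjusted p of 1) and 0.57 without animals 12 and 69.

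For the 3 members with at least 3 counts in every library, the IP/input ratio of each animal was compared between genotypes by a two-sided exact permutation test of the 7 animals, which has 35 splits and cannot give a p below 0.0286. The Eif2ak2 ratio was 0.37, 2.45, 0.043 and 0.288 in MUT (animals 12, 69, 93 and 94), against 0.251, 0.408 and 0.196 in WT (animals 17, 121 and 140). The MUT ratios ran far above and far below the narrow band of the WT ratios. The difference of mean log2 ratios was 0.26 (SD 2.39 in MUT and 0.54 in WT, exact p = 0.743). The Mavs ratio was 1.17, 0.198, 0.757 and 0.698 in MUT, against 0.542, 0.673 and 0.469 in WT. Here 3 of 4 MUT animals were above all WT animals and animal 69 was below them, with a difference of 0.09 (SD 1.10 in MUT and 0.26 in WT, exact p = 0.857). The Irf3 ratio was 0.814, 1.95, 1.15 and 1.51 in MUT, against 1.32, 1.25 and 1.27 in WT. The means were nearly equal, with a difference of 0.01 (SD 0.54 in MUT and 0.04 in WT, exact p of 1). For all 3 genes the SD of the log2 ratio was larger in MUT than in WT. The share of all features with a larger SD in MUT was not counted, so this is no trait particular to the members. On CPM, animal 69, which had 63 counts of Eif2ak2 in input, had the highest ratio of Eif2ak2 and Irf3 and the lowest of Mavs.

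The same ratio was also taken from the deposited TPM, the scale the study used for ribosome association, which weights each transcript by its length. The Eif2ak2 ratio was then 5.75, 0.583, 0.0632 and 2.46 in MUT, against 0.708, 0.857 and 0.395 in WT. Animal 12 was highest and animal 69 no longer stood above WT, so the order of the MUT animals changed with the scale. For Irf3 the TPM ratio was 1.29, 2.76, 1.96 and 2.90 in MUT, against 2.31, 1.47 and 1.46 in WT, with animal 94 highest. For Mavs it was 2.01, 0.383, 1.49 and 1.39 in MUT, against 1.03, 1.02 and 0.722 in WT, and animal 69 was again the lowest. The differences of mean log2 TPM ratios were 0.45 for Eif2ak2, 0.30 for Mavs and 0.31 for Irf3, at exact permutation p-values of 0.857, 0.629 and 0.4.

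**Figure D4:**
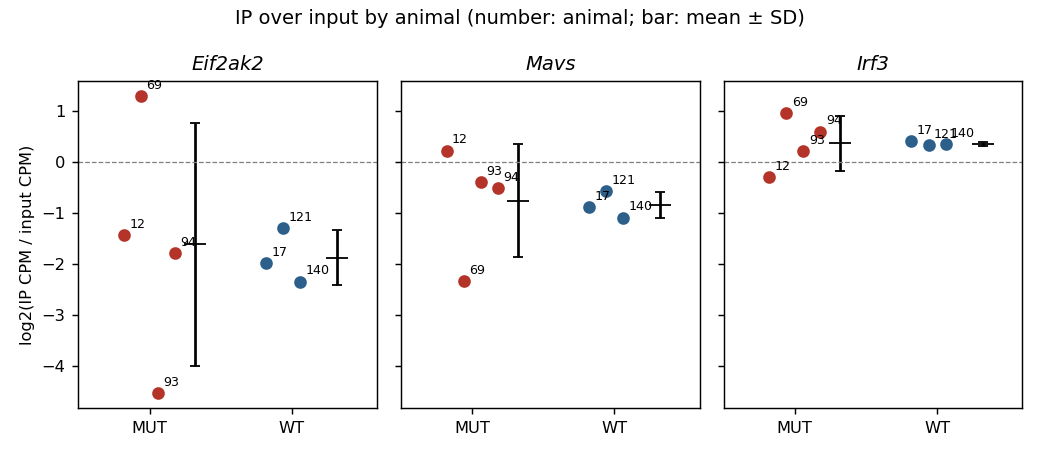
Log2 ratio of IP CPM to input CPM of each animal (points, labelled by animal) for the 3 members with at least 3 counts in all libraries, with the mean and SD of each genotype (bar). MUT animals spread more widely than WT animals in each panel (SD 2.39 against 0.54 for Eif2ak2, 1.10 against 0.26 for Mavs and 0.54 against 0.04 for Irf3).

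The tables hold 1 entry per transcript, so the same genes were also described by transcript. RSEM divides reads that fit several transcripts of a gene by a model, and the division is less certain than the sum. The share of Eif2ak2 counts on the protein-coding transcript was 11.7% in animal 12, 36.3% in animal 94 and 100% in animals 69 and 93 in MUT IP, and the rest was on retained-intron transcripts. In MUT input, animal 69 had none of its 63 counts on the protein-coding transcript and all on a retained-intron transcript, and the other 3 had 96.7% to 100% on the protein-coding one. In WT the share was 89.9% ± 2.05 in IP and 96.0% ± 2.93 in input (SD, n = 3 each). The MUT libraries thus differed from one another, and the WT libraries shared 1 makeup.

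Irf3 kept a large share of retained-intron counts in every group, at 36.5% ± 4.01 in MUT IP (n = 4), 29.3% ± 7.38 in WT IP (n = 3), 47.4% ± 22.5 in MUT input (n = 4) and 31.3% ± 8.95 in WT input (n = 3). The ranges of the genotypes overlapped in IP and in input. Among protein-coding transcripts, the leading one changed between libraries of the same group: in MUT IP, animal 69 had 1413 counts on Irf3-213 and 0 on Irf3-202, while animals 12, 93 and 94 had 709 to 1106 on Irf3-202 and 0 on Irf3-213.

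Mavs counts lay almost wholly on 2 protein-coding transcripts, Mavs-201 and Mavs-202. In MUT IP all counts were on Mavs-201 in 4 of 4 animals (392, 161, 359 and 419), against 0, 93.2 and 39.4 counts on Mavs-201 and 220, 91.8 and 117 counts on Mavs-202 in WT IP. In input, Mavs-202 had 0, 796, 347 and 407 counts in MUT, against 222, 244 and 275 counts in WT. The IP libraries did not overlap between genotypes in the share of Mavs-201, and each MUT IP library placed every read of the gene on 1 of 4 listed transcripts. The same all-or-none assignment was seen on the other transcript, Mavs-202, in the WT IP of animal 17 and in the MUT input of animals 69 and 93. The share of all genes with such a split between genotypes was not counted, and a genotype difference in transcript use was not tested.

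**Figure D5:**
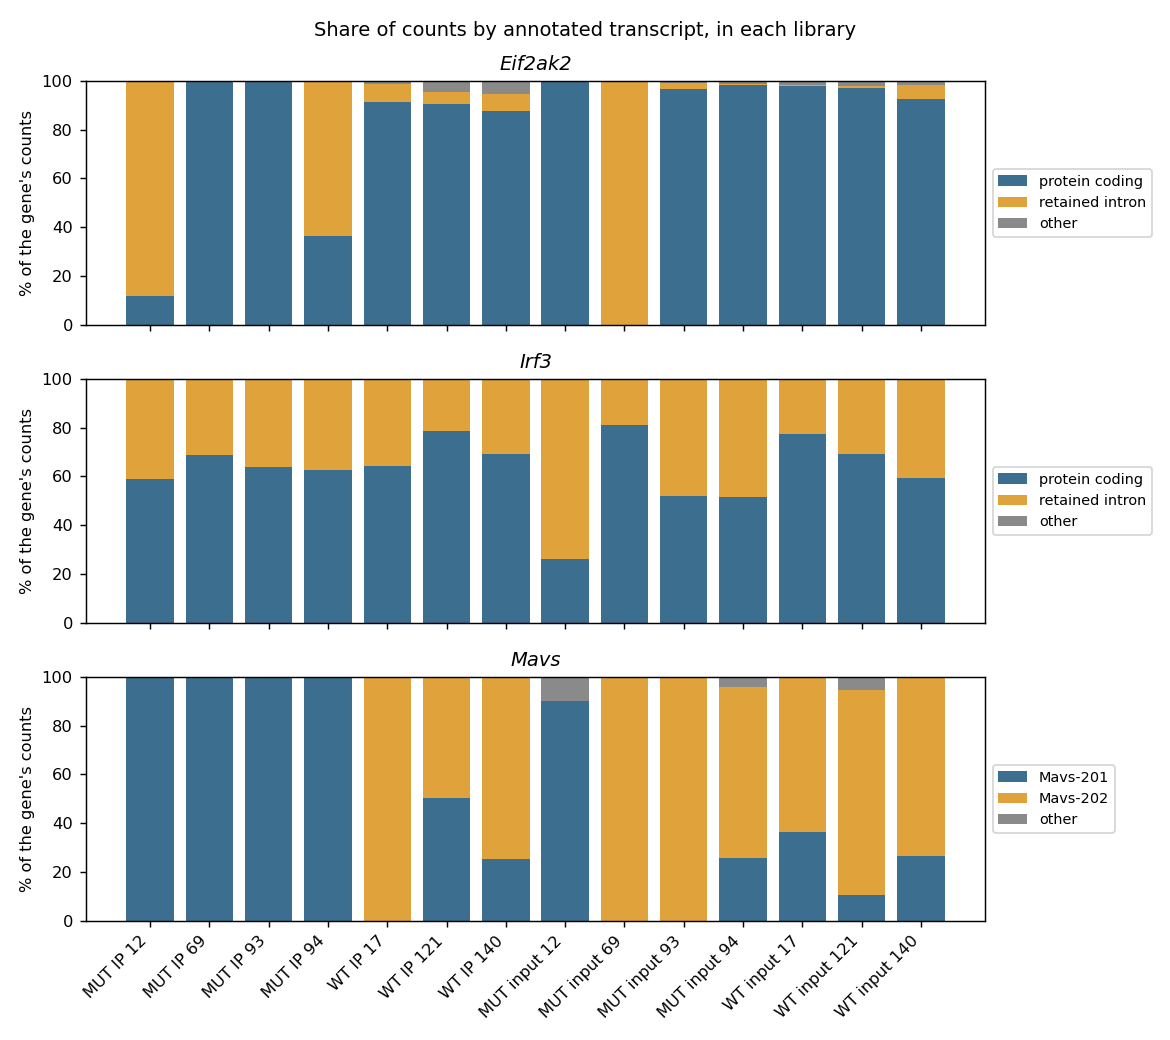
Share of each gene's expected counts (percent) by annotated transcript type for Eif2ak2 and Irf3 and by transcript for Mavs, 1 bar per library, MUT IP, WT IP, MUT input and WT input from left to right. For Eif2ak2, MUT bars range from 0% to 100% protein coding and WT bars from 87.6% to 98.1%, and Mavs-201 fills all 4 MUT IP bars.

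Other genes of the pathway were described by lists. Of 15 other double-stranded RNA sensors, Dhx58, which encodes LGP2, a helicase that regulates MDA5 and RIG-I, was the abundant one. It had 1475, 2359, 1214 and 1758 counts in MUT IP, against 1989, 2211 and 2058 counts in WT IP. In total RNA there were 1416, 1083, 534 and 754 counts in MUT, against 1081, 999 and 952 counts in WT. Per length it averaged 42.5 TPM in MUT IP, 46.5 in WT IP, 12.2 in MUT input and 15.5 in WT input, above every member but Irf3. It was higher in IP than in input in WT (log2 fold change 1.37, SE 0.17, edgeR adjusted p = 0.0153), the opposite direction to Eif2ak2. Of the oligoadenylate synthetase genes, whose family makes the activator of RNase L, Oas1d, Oas1e and Oas1h had 0 counts in all libraries. Oasl2, an oligoadenylate synthetase-like gene, had 145, 233, 189 and 210 counts in MUT IP, against 78, 75 and 19 counts in WT IP, and 32, 0, 105 and 15 counts in MUT input, against 27, 58 and 31 counts in WT input. In IP all MUT libraries were above all WT libraries, but this gene was picked after its values were seen. The share of all features with such a split was not counted. The log2 fold change of 1.59 (SE 0.99) did not pass (edgeR adjusted p = 0.845).

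Interferon ligands were nearly absent from the counts. Of 21 interferon genes, 0 had a count in any IP library, 2 had one in MUT input and 4 in WT input, and Ifnb1 and Ifng were at 0 in all 14 libraries. Type I receptor RNA was present, with 573 to 1570 counts of Ifnar1 in MUT IP, 939 to 1320 in WT IP, 1007 to 1781 in MUT input and 1141 to 1245 in WT input. Of the 14 receptor and JAK-STAT genes, 13 were tested in WT, and in IP against input 2 were higher, the kinases Tyk2 (log2 fold change 0.97, SE 0.12) and Jak1 (0.91, SE 0.14), and 1 was lower, the receptor subunit Il10rb (-2.59, SE 0.50). Among the 12 adaptors and kinases, the IRF3 kinase Tbk1 was higher (1.31, SE 0.15) and its scaffold Tank was lower (-2.37, SE 0.48). Irf1, the only other IRF factor called of 5 tested, was higher (2.33, SE 0.29), with 288, 427 and 397 counts in WT IP against 76, 91 and 109 in WT input. The helicase gene Ddx41 was the 1 called of 5 other nucleic acid sensors tested, and was higher (1.62, SE 0.20). These calls, 3 of 13, 2 of 12, 1 of 5 and 1 of 5, stand beside the 19.4% of all features called in this comparison, and they held with the scaling over all libraries. Between genotypes, none of the genes in these lists was called by edgeR in input or in IP. In input 0 had an unadjusted p below 0.05 and DESeq2 called 0, and in IP Ikbke and Irf5, both at 0 counts in all MUT IP libraries, had an unadjusted p below 0.05 and were called lower by DESeq2.

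Lists next to the pathway in function were read in the same comparison, in which 19.4% of all features were called. Of 16 genes for double-stranded RNA binding and editing, 12 were above 0 and 4 below, and 8 were called higher in IP and 1 lower, with a median log2 fold change of 0.83 beside -0.60 over all features. They included Ilf2 (1.76, SE 0.13), Drosha (2.03, SE 0.12), Dhx9 (1.06, SE 0.10), Dicer1 (1.11, SE 0.13), Stau1 (0.90, SE 0.10), Tarbp2 (0.76, SE 0.09) and Adad2 itself (2.22, SE 0.12), and Strbp was lower (-0.53, SE 0.09). In MUT, Ilf2 (1.38, SE 0.12) and Drosha (1.87, SE 0.21) were again higher and Strbp lower (-1.53, SE 0.19). Of 16 genes for eIF2 kinases and the stress response, 12 were above 0 and 4 below in WT, and 8 were called higher in IP and 1 lower, with a median of 0.69. The heme-regulated eIF2 kinase Eif2ak1 was among the higher ones (1.15, SE 0.10), with 3063, 2514 and 2298 counts in WT IP against 1513, 1377 and 1532 in WT input, whereas Eif2ak2, the kinase that responds to double-stranded RNA, was lower in IP. The others were the eIF2B subunits Eif2b2 (1.40, SE 0.18), Eif2b3 (2.03, SE 0.10), Eif2b4 (0.70, SE 0.14) and Eif2b5 (1.02, SE 0.09), the eIF2 subunits Eif2s2 (0.82, SE 0.12) and Eif2s3y (0.92, SE 0.13) and the phosphatase subunit Ppp1r15a (1.27, SE 0.23). The stress-response factor Atf4 was lower (-0.90, SE 0.13). In MUT, Eif2b3 (1.61, SE 0.31) was the 1 gene of this list called, and Ddx41 (1.20, SE 0.16) was called as in WT. All of these passed an edgeR adjusted p of 0.05. With the scaling over all libraries, Tarbp2, Eif2b4 and Ppp1r15a did not pass in WT, and the lists had 7 called higher and 2 lower (median 0.52) and 6 higher and 3 lower (median 0.38).

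Between genotypes, Adad2 in IP was the 1 gene of these lists that edgeR called, while DESeq2 called Adad2 and Strbp lower in IP, and Adad2 lower and Stau1 higher in input. Among list genes with a mean log2 CPM of 0 or more, the next smallest p-values in each fraction belonged to other RNA-binding proteins, none of which passed in edgeR. Strbp was -0.97 in IP (SE 0.28, adjusted p = 0.131), Tarbp2 was -0.33 in IP (SE 0.12, adjusted p = 0.28) and -0.45 in input (SE 0.18, adjusted p = 0.685), Adad1 was -0.80 in IP (SE 0.36, adjusted p = 0.479) and -0.46 in input (SE 0.15, adjusted p = 0.463), and Stau1 was 0.38 in input (SE 0.11, adjusted p = 0.348). Adad2 in input was -1.76 (SE 0.37, adjusted p = 0.347). For the genotype difference in IP/input, the list genes with the smallest p-values were Cxcl10, Irf5, Tmem173 and Adad2, and all had an edgeR adjusted p of 0.443 or above. DESeq2 called Cxcl10, Irf5, Tmem173 and Ifitm3 lower. Cxcl10, an interferon-induced chemokine, had 0, 0, 0 and 1 counts in MUT IP against 28, 15 and 12 in WT IP. Irf5 had 0 counts in all MUT IP libraries against 51, 33 and 11 in WT IP. Tmem173, which encodes the DNA-pathway adaptor STING, likewise had 0 against 7, 11 and 10. The WT IP means of Cxcl10 and Irf5 lie in the range in which 23.5% of genes were at 0 in all MUT IP libraries, and that of Tmem173 just below it.

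The wider set of 37 interferon-stimulated genes ranged widely in count. The dNTPase gene Samhd1 had 652 to 1250 counts in MUT IP, 515 to 809 in WT IP, 382 to 779 in MUT input and 367 to 481 in WT input, and B2m, the light chain of MHC class I, reached 344, 289, 1272 and 650 counts in the same groups. Of the 37 genes, 13 were at 0 in all MUT IP libraries and 7 in all WT IP libraries. In input, 31 were tested between genotypes, 23 had a log2 fold change above 0 and 8 below, with a median of 0.38 beside -0.18 over all features, and none was called (0 with unadjusted p below 0.05, 0 by DESeq2). Their summed level was 110 to 225 CPM in MUT input and 118 to 136 CPM in WT input, so the MUT libraries lay on both sides of the WT ones. In IP, 18 were tested, 13 above 0 and 5 below, with a median of 0.40 beside -0.15, and none was called by edgeR (1 was lower with unadjusted p below 0.05, Cxcl10, which DESeq2 also called lower). The summed level was 60.9 to 93.6 CPM in MUT IP and 60.5 to 79.3 CPM in WT IP. In WT, 25 of 30 tested were lower in IP than in input, with a median of -1.77 beside -0.60 over all features. None was called by edgeR, where unadjusted p was below 0.05 for 3 that were lower and 1 that was higher. DESeq2 called 17 lower and 2 higher, in a comparison in which it called 18846 of 34864 features.

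Because interferon-stimulated genes are strongly expressed in macrophages, markers of cells outside the germ line were read beside them. The summed level of 14 macrophage markers was 12.4 to 36.4 CPM in MUT IP and 23.5 to 40.3 CPM in WT IP, against 181 to 258 CPM in MUT input and 144 to 192 CPM in WT input. In WT, 13 of 13 tested were below 0 in IP against input (median -2.66) and 4 were called lower. Over all features, this comparison had a median of -0.60 and 19.4% were called, the background for each marker list below. Cd68, Lyz2, Mrc1, C1qc and Cd163 were at 0 in all MUT IP libraries, and Cd163 in all WT IP libraries. In WT IP, Mrc1 had 255, 71 and 143 counts and C1qc had 51, 25 and 18. DESeq2 called these 2 genes lower in MUT IP and edgeR called neither. Of annotated genes above 0 in all WT IP libraries, 8.44% were at 0 in all MUT IP libraries. The 12 Sertoli cell markers were likewise lower in IP, at 174 to 304 CPM in MUT IP and 224 to 379 CPM in WT IP against 1101 to 1557 CPM in MUT input and 954 to 1092 CPM in WT input. Of 10 meiotic germ cell markers, 8 were called higher in WT IP and 2, Ddx4 and Pgk2, lower, and their summed level was 7119 to 7682 CPM in MUT IP and 8627 to 9594 CPM in WT IP against 2677 to 3283 CPM in MUT input and 3617 to 4245 CPM in WT input. Of 7 spermatogonial markers tested in WT, 6 were called higher in IP. The 7 round spermatid markers tested went both ways: 4 were below 0, with a median of -1.01, and edgeR called 2 higher in IP and 1 lower. Markers of macrophages and Sertoli cells thus lay below 0 in WT IP against input, as did 6 of the 7 members tested. The medians of the round spermatid markers and of all features were also below 0. Most spermatogonial and meiotic markers lay above 0, as did Irf3. Immune cells did not all go 1 way: of 2 T and NK cell markers tested, 1 was above 0 and 1 below. Cd3e was the higher one (DESeq2 log2 fold change 3.49, adjusted p = 7.19e-07, not called by edgeR). Both plasmacytoid dendritic cell markers tested were below 0. The part of these cells in the levels of the members was not tested. In MUT input, markers of several somatic cells lay above WT: 10 of 11 Sertoli cell markers (median log2 fold change 0.30), 6 of 6 Leydig cell (0.28), 7 of 8 myoid and stromal (0.38) and 9 of 9 vessel and blood markers (0.59). None was called by edgeR (4 Sertoli cell and 2 myoid and stromal markers were higher with unadjusted p below 0.05, and DESeq2 called 4 and 1). Macrophage markers had a median of 0.41 (12 of 14 above 0) and round spermatid markers one of -1.23 (7 of 7 below 0), and 0 markers of either list were called by edgeR (2 macrophage markers higher and 2 round spermatid markers lower with unadjusted p below 0.05; DESeq2 called 0 and 1). A shift above WT was not limited to somatic cells: 5 of 7 spermatogonial markers were above 0 (median 0.34). Of the meiotic markers, 8 of 10 were below 0 (median -0.36), 3 of them with unadjusted p below 0.05. Neither edgeR nor DESeq2 called any marker of these 2 lists. The median of all features in this comparison was -0.18.

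Genes whose level was most like that of a member over the 14 libraries were found by Pearson correlation of log2(CPM + 0.5) among 13166 annotated genes. For Eif2ak2 they were Gm49143 (r = 0.97), Pdzd8 (0.95) and BC049715 (0.94). For Mavs they were Zfp36l1 (0.92), Sema6c (0.91) and Hipk2 (0.90), and for Irf3 they were Zxdc (0.95), Ryr1 (0.94) and Acaa1b (0.94). These are descriptions over 7 animals that share fraction, genotype and library, and no other member was among them.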

How the data were processed

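Input and IP RNA of 7 animals was deposited as 14 tables. Per the study's methods, stranded paired-end libraries were made after ribosomal RNA depletion. The authors made expected counts and TPM per transcript with RSEM 1.3.3 on GRCm38 and deposited both; the expected counts are not normalized, and the TPM values are scaled over all entries of a library. Of 182829 entries, 133445 Ensembl transcripts were assigned to 53239 symbols with GENCODE M21 (GRCm38) and summed; assembled transcripts and 404 unmatched ones were kept singly, and 92 spike-ins were left out of library sizes. Counts were rounded. edgeR 4.0.16 (TMM, filterByExpr, robust quasi-likelihood test, Benjamini-Hochberg over all features, adjusted p under 0.05) was used, with the animal as a block for IP against input; input and IP come from the same animal, and their deviations correlated at 0.016 to 0.217. The interaction used features above 0 in every input library. The study's input test, EBSeq, was not used here. Alternatives used DESeq2 1.42.0, limma 3.58.1 on log2(TPM + 0.1) (fold changes of low genes are understated on that scale), RLE factors, TMM factors over all libraries (added after seeing the data), no filter, no block, each animal left out, and animals 12 and 69 left out. R 4.3.3, Python 3.11.15, scipy 1.17.1, pandas 2.3.3, numpy 2.4.6 and matplotlib 3.10.9 were used. Only the fits of MUT against WT in input and of the genotype difference in IP/input were tried on simulated counts. The simulation took only features above 0 in every library compared, so it does not bear on genes listed at 0 in mutant libraries. The members, the lists and the tests were chosen with earlier results of these data known. Besides the members, genes were named by 3 rules: from the lists, the 4 smallest p-values per comparison where the mean log2 CPM was 0 or more, and every gene called; the 3 genes most correlated with Eif2ak2, Mavs and Irf3; and Adad2. Genes with overlapping neighbours, single interferon and receptor genes, marker genes, Ikbke, Oasl2, Samhd1, B2m, Ifitm3, and Dhx58 and Eif2ak1 levels were added after their values were seen. The values of 1 gene that the rule names are not reported here.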

Additional observations from a re-analysis of the deposited data

Results flagged for a closer look

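In groups of 4 mutant libraries, the gap of a library to the nearest other was divided by the range of the 4. A library was singled out where this ratio exceeded Dixon's critical value. This was so in 4 of the 18 such groups examined. Chance gives about 1 in 20 for continuous values, a rate that does not apply to counts such as those of Zbp1, Isg15 and Ifit1, where the other libraries were at or near 0. Eif2ak2 had 63 counts in the input of animal 69, against 724 to 810 in the other MUT input libraries. Zbp1 had 72 counts in the IP of animal 94, against 0 in the other MUT IP libraries. Isg15 had 20 counts and Ifit1 had 61 counts in the input of animal 94, against 0 to 2 and 0 in the other MUT input libraries.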

How the results depend on the processing

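Among called features, counts in the order input MUT against WT, IP MUT against WT, IP against input in WT, IP against input in MUT, and genotype difference in IP/input were 3, 2, 6761, 2271 and 0 in edgeR, against 1143, 2504, 18846, 10039 and 979 in DESeq2 and 0, 1838, 10635, 6042 and 1 in limma on log2(TPM + 0.1). Without a filter the first 2 were 30 and 76. Without the replicate block the last 3 were 10270, 3721 and 388, and it raised the members called in WT to 3 (Ifih1). Without animals 12 and 69, the counts of features were 0, 1, 12 and 76 in the 4 comparisons that hold MUT animals. Leaving out each animal in turn gave 0 to 2, 0 to 4, 0 to 3754, 961 to 1585 and 0 to 10, and members called in WT were 0 to 0. Members called between IP and input in WT were 4 in DESeq2 and 1 in limma, against 2, and 1 member each was called by DESeq2 and limma between genotypes in IP and by limma between IP and input in MUT, against 0. With RLE factors these counts stayed within 1.5 times of those reported. With TMM factors over all 14 libraries, an alternative chosen after seeing the data, features called in input were 1, against 3, and members called in WT were 1, against 2, since Irf3 did not pass; the other counts stayed within 1.5 times. The cause of these differences between tools was not tested.

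Directions changed for uncalled log2 fold changes. Without animals 12 and 69, MUT over WT in input was 0.091 for Eif2ak2, 0.77 for Ifih1, 0.58 for Ddx58, 0.57 for Ifit1 and 0.78 for Irf7, and the genotype difference in IP/input of Eif2ak2 was -1.27 (-0.0040 without the block). In limma on log2(TPM + 0.1), it was -0.17 for Irf3 in input, -0.48 for Ddx58 in IP, 0.12 for Irf7 in IP against input in WT, and 1.36 for Ifih1 and 0.16 for Mavs in IP against input in MUT. Leaving out each animal gave, in input, -0.47 to 0.13 for Eif2ak2, -0.75 to 0.31 for Ifih1, -7.14 to 0.16 for Ifit1, -0.070 to 0.15 for Irf3 and -1.06 to 0.18 for Irf7. In IP it gave -0.70 to 0.10 for Eif2ak2 and -0.016 to 0.17 for Irf3, and in IP against input in MUT -1.96 to 0.79 for Ifih1 and -4.44 to 0.94 for Ddx58. For the genotype difference in IP/input it gave -0.65 to 1.01 for Eif2ak2, -0.21 to 0.59 for Mavs and -0.21 to 0.23 for Irf3, and in the difference of log2 ratios -0.71 to 1.23, -0.24 to 0.62 and -0.19 to 0.23. With 4 against 3 animals and 0 listed for many genes in mutant libraries, changes of the low members could be missed. Between genotypes edgeR called none of those tested, while DESeq2 and limma called Irf7 lower in MUT IP.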
